A study of Homo sapiens with 6 samples.

Results

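The inhibitor of apoptosis (IAP) genes BIRC5, BIRC2, BIRC3, XIAP and BIRC6 were examined for association with CELF1 in 2 human melanoma cell lines, with BIRC5 set beside the other members. They are 5 of the 19834 protein-coding genes of the annotation, were chosen by name, and are described by the 20-bp bins whose centre lies in their exons. CELF1, also called CUGBP1, was immunoprecipitated from SK-Mel-103 and UACC-62 cells, established lines with mutant NRAS and mutant BRAF, respectively, and the recovered RNA (IP) was sequenced beside RNA of the lysate (input). The labels name no transgene or drug for either line, and no IP with a control antibody was analysed here. The data comprise 3 IP samples, namely R1 of SK-Mel-103, which had no replicate, and the UACC-62 replicates R1 and R3, and the authors called each of them with its own input as covariate. Where 3 values are given without names, they are those of SK-Mel-103, UACC-62 R1 and UACC-62 R3 in that order. Nothing says whether the UACC-62 replicates came from separate cultures, so their spread may be technical.

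IAP proteins share a zinc-binding fold, the BIR domain, and several of them keep caspases, the proteases that carry out apoptosis, in check. XIAP binds and blocks caspases directly. BIRC2 and BIRC3 are ubiquitin ligases of the tumor necrosis factor receptor complex, and BIRC6 is a very large protein that attaches ubiquitin to its substrates. BIRC5, or survivin, is in addition a subunit of the chromosomal passenger complex and acts in cell division. CELF1 recognizes GU-rich elements (GREs) in the 3′ UTR of transcripts and is known to affect their decay, translation and splicing.

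The files list 816781, 780750 and 862731 bins with 10958459, 11333805 and 14436573 IP reads and 8453517, 10161917 and 8900292 input reads for SK-Mel-103 R1, UACC-62 R1 and UACC-62 R3. Only bins with at least 4 IP reads that had passed the peak caller at p-values under 0.05 are listed, so every ratio below is conditional on that selection and reads of other bins are unknown. Of the melanocyte lineage markers, 3 of 8 had input reads in listed bins of SK-Mel-103 and 6 of 8 in both UACC-62 samples, with summed levels of 106, 1547 and 1346 input reads per 1000000 listed reads. SOX10 was present in all samples, MITF and MLANA were at 18 input reads each in SK-Mel-103, TYR, DCT and S100B had no listed input there, and PMEL and TYRP1 had none in any sample. Of 7 annotated markers of other cell types, PTPRC alone had input, with 3 reads in UACC-62 R1.

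All 5 members had listed exonic bins in every sample, 823, 769 and 875 in total in SK-Mel-103 R1, UACC-62 R1 and UACC-62 R3. They held 12574, 11915 and 19470 IP reads. A peak was a bin of over 30 IP reads and p-value under 0.05, and a common peak was the same bin called in all 3 samples. The read cut was not scaled to depth, and all listed bins together gave 55930, 58123 and 85010 peaks in the same sample order. The files do not say whether these p-values are corrected for the number of bins. Common peaks in the 3′ UTR were found in 3 of the 5 members, beside 8.51% of the 19307 protein-coding genes that have a 3′ UTR in the annotation. BIRC5 had 42 of them, XIAP 14 and BIRC2 2, whereas BIRC3 and BIRC6 had none. None of the 5 members had a common peak in the coding sequence (CDS), beside 2.8% of the 19834 genes. Both shares include genes without a listed exonic bin, which cannot hold a peak. Genes with such a bin numbered 11489, 11293 and 12081 in the same sample order, and all 5 members were among them.

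GREs were searched as 11-nt stretches on the transcript strand with at most 2 mismatches to a repeat of UG or of UGUU, overlapping matches being joined. The 5 members held 13 in their annotated 3′ UTRs, namely 3 in BIRC5, 6 in XIAP, 2 in BIRC3 and 1 each in BIRC2 and BIRC6. At least 1 such element is present in 56.4% of the 19307 annotated 3′ UTRs, so their presence is common. All 3 elements of BIRC5 overlap a common peak and none of the other members' elements does. Of these 3, however, 2 overlap the same common peak, chr17:76220121-76220140, so the overlaps come from 2 places only. For comparison, 2 elements of BIRC5 are shown beside 5 of the other members. All lie in 3′ UTR exons on the plus strand of GRCh37. Capitals mark the 11-nt element within 30 nt of reference sequence, printed as RNA.
BIRC5, chr17:76220120-76220130: ucagaggacAGUUUUUUUGUuguuguguuu
BIRC5, chr17:76220533-76220543: gcugcaggcCGUGUGUCUGUcagcccaacc
BIRC2, chr11:102249141-102249151: cuauauuagUAUGUAUGUGUaccuaaggga
XIAP, chrX:123041730-123041740: aucaaaguaUGUAUGUUUUUaauaugcaua
XIAP, chrX:123043711-123043721: uuaacagcaUUUGUCUGUGUuugaacuaua
BIRC3, chr11:102208675-102208685: ccuuuaguaAGUUUGUUUAUucacuucucu
BIRC6, chr2:32843032-32843042: auaugucaaUAUUUGUAUGUaagaaacuaa
None of the 13 elements was an exact match.

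The BIRC5 element at 485 nt after the stop codon was overlapped by 2 bins with 146 IP against 39 input reads for SK-Mel-103, 206 and 81 in UACC-62 R1, and 314 and 65 in UACC-62 R3. That at 898 nt had 73 and 35, 58 and 46, and 115 and 22 in the same order. Common peaks took up 42 of the 104 bins of the main BIRC5 3′ UTR in any case. The only GRE of BIRC2 lay 150 nt from its nearest common peak, with 45 IP against 12 input reads for SK-Mel-103, 18 and 8 in UACC-62 R1, and 24 and 19 in UACC-62 R3. The 6 GREs of XIAP lay 1, 40, 141, 811, 2233 and 2415 nt from a common peak. The first of these, 1 nt away, had no listed bin in SK-Mel-103 and 10 and 17 IP reads in the UACC-62 replicates. Neither GRE of BIRC3 had a listed bin in any sample, and that of BIRC6 had 5, 7 and 7 IP reads.

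The bases G and U made up 54.3% of the 3′ UTR in BIRC5, 56.1% in BIRC2, 52.8% in XIAP, 51.8% in BIRC3 and 51.5% in BIRC6, beside a median of 51.0% over all 19307 3′ UTRs. The trinucleotide UGU occurred 3.04 times per 100 nt in BIRC5, 3.49 in BIRC2, 2.68 in XIAP, 2.30 in BIRC3 and 2.28 in BIRC6, beside a median of 2.20. Within BIRC5, UGU was present in 21 of the 42 bins with a common peak (50%) and in 27 of the 62 other bins of its main 3′ UTR (43.5%). In XIAP these were 7 of 14 (50%) and 123 of 325 (37.8%). In BIRC2 they did not differ, at 1 of 2 (50%) and 11 of 22 (50%). The bins with the highest lowest-of-3 IP count in BIRC5, BIRC2 and XIAP are shown to set the strongest signal beside the GREs, with UGU in capitals.
BIRC5, chr17:76220181-76220200: gaugagagaauggagacaga
BIRC5, chr17:76220041-76220060: ugagUGUggacuuggcaggu
BIRC5, chr17:76220721-76220740: uggaaaccucuggaggucau
BIRC2, chr11:102249341-102249360: uuuuucucuuauuucucccc
BIRC2, chr11:102249301-102249320: auUGUcuuuggugcuuuuca
XIAP, chrX:123042201-123042220: uuccaauuaauuaguaagga
XIAP, chrX:123042621-123042640: uaagaaucaguaggguauaa
XIAP, chrX:123042321-123042340: aaguagaagcaUGUuUGUac
Of these 8 bins, up to 3 for each gene, 3 hold UGU and none overlaps a GRE. That depends on the cut at 3, as the next BIRC5 bin, chr17:76220121-76220140, overlaps a GRE. Its lowest count was 142, after 147 for the last BIRC5 bin shown. The order is by IP reads and not by IP over input. IP fragments are longer than a bin, so a bin's sequence need not contain the contact.

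BIRC5 (ENSG00000089685, chr17:76210267-76221717) showed the highest IP level of the family in its 3′ UTR, 155, 142 and 211 IP reads per 1000000 and kb of length. The corresponding levels were 119, 51.6 and 62.2 in BIRC2, 34.9, 56.0 and 63.7 in XIAP and 7.61, 6.77 and 6.81 in BIRC6. Its 3′ UTR, 2537 nt over all transcripts, spans 127 bins, of which 92, 90 and 91 were listed in SK-Mel-103 R1, UACC-62 R1 and UACC-62 R3. All of them fell in the 104 bins of the main transcript (ENST00000350051), and the 23 bins used by other isoforms alone had none. The region held 4301 IP reads and 1710 input reads for SK-Mel-103. In UACC-62 R1 it held 4070 and 2007, and in UACC-62 R3 it held 7716 and 1645. The IP was therefore higher in UACC-62 R3 than in the other samples while the input was similar in all of them.

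The log2 ratio of IP over input, with 1 read added to both and each divided by its column total, was 0.96 for the BIRC5 3′ UTR in SK-Mel-103, 0.86 in UACC-62 R1 and 1.53 in UACC-62 R3. In UACC-62 the mean was 1.2 ± 0.47 (SD, n = 2). The value of SK-Mel-103 lay between those of the UACC-62 replicates, so the cell lines did not separate. Peaks numbered 50, 46 and 59, and the 42 common ones made up 84.0%, 91.3% and 71.2% of these.

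The common peaks of BIRC5 formed 14 uninterrupted runs between 76 and 1756 nt after the stop codon. The longest run covered 10 bins, chr17:76220221-76220420, 596 to 776 nt after the stop codon by bin centres. The bin with the highest lowest-of-3 count, chr17:76220181-76220200, had 190 IP against 56 input reads for SK-Mel-103, 222 and 80 in UACC-62 R1, and 378 and 8 in UACC-62 R3. Its input in the last sample was far below that in the other samples, so its ratio there rests on few input reads. The bin chr17:76220041-76220060 had 187 and 56, 206 and 47, and 267 and 69 IP and input reads in the same order. The bin chr17:76220721-76220740 had 147 and 80, 162 and 112, and 408 and 86.

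Divided into windows of 400 nt, the BIRC5 3′ UTR held most reads from 401 to 800 nt after the stop codon, 1769, 1933 and 3643 IP reads for SK-Mel-103 R1, UACC-62 R1 and UACC-62 R3. The log2 IP over input of that window was 0.96, 1.01 and 1.60. It was 1.16, 0.79 and 1.47 in the first window and 1.22, 1.39 and 1.56 from 1601 to 2000 nt, where IP reads numbered 313, 186 and 305. The ratio was thus above 0 in every window of the first 2000 nt in every sample, while IP reads in these windows ranged from 186 to 3643. The windows that hold the GREs, 401 to 800 and 801 to 1200 nt, were not the highest by ratio in SK-Mel-103 or UACC-62 R1.

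**Figure D1:**
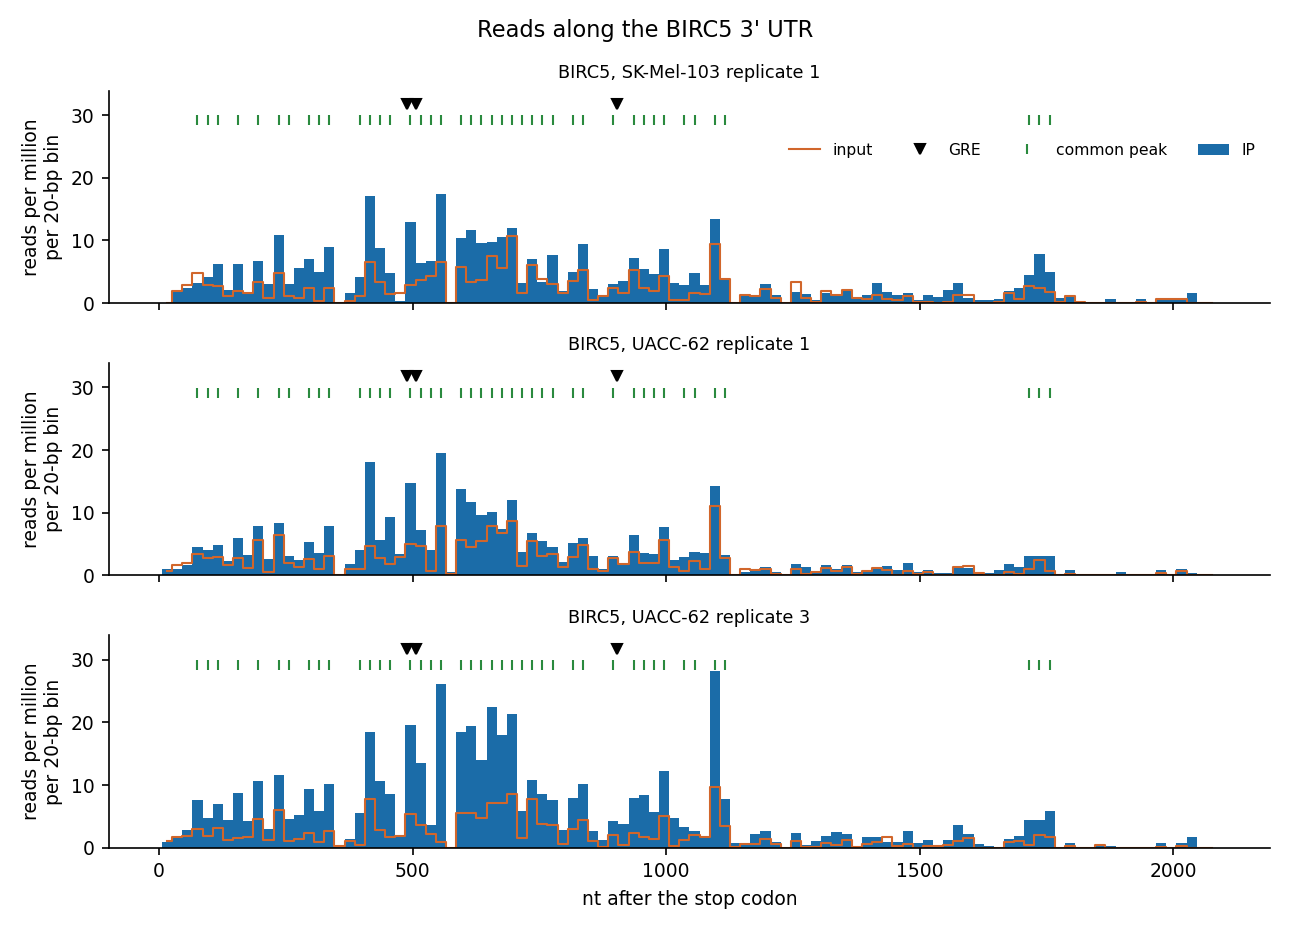
Reads per 1000000 listed reads in each 20-bp bin along the 3′ UTR of the main BIRC5 transcript, against the distance from the stop codon in nt, for the 3 samples (bars, IP; line, input; triangles, GREs; ticks, common peaks). IP is above input over most of the first 1200 nt in each sample, with all but 3 of the 42 common peaks there and those 3 from 1716 to 1756 nt.

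The coding sequence of BIRC5 held fewer reads, 164 IP against 142 input reads for SK-Mel-103, 152 and 196 in UACC-62 R1, and 486 and 170 in UACC-62 R3. Its log2 IP over input was -0.17, -0.52 and 0.81, with a UACC-62 mean of 0.14 ± 0.94 (SD, n = 2). The UACC-62 replicates thus differed in sign. All 7 CDS peaks of BIRC5 came from UACC-62 R3, the sample with the most peaks over all listed bins. Of them, 5 were adjacent bins at chr17:76219541-76219640, at the end of the CDS. In the 5′ UTR no bin of BIRC5 was listed.

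The share of exonic reads that fell in the 3′ UTR of BIRC5 was 96.3% in the IP of SK-Mel-103 (95% Wilson interval 95.7 to 96.8) and 92.3% in its input (91.0 to 93.5). In UACC-62 R1 it was 96.4% (95.8 to 96.9) against 91.1% (89.8 to 92.2), and in UACC-62 R3 it was 94.1% (93.5 to 94.6) against 90.6% (89.2 to 91.9). The intervals of IP and input did not overlap in any sample. They treat each read of the listed bins as independent, so they are too narrow where reads are PCR copies. They also leave out spread between samples.

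XIAP (ENSG00000101966, chrX:122993562-123047822), the direct caspase inhibitor, was next in order. Its 3′ UTR is the longest of the family at 6791 nt. It held 2596 IP against 1202 input reads for SK-Mel-103, 4314 and 2685 in UACC-62 R1, and 6245 and 2499 in UACC-62 R3. The log2 IP over input was 0.74, 0.53 and 0.62, with a UACC-62 mean of 0.57 ± 0.07 (SD, n = 2). The replicates of UACC-62 were thus closer to each other than for BIRC5. Peaks numbered 15, 33 and 81, of which the 14 common ones were 93.3%, 42.4% and 17.3%, so most XIAP peaks of UACC-62 R3 were not called in the other samples. Over all listed bins UACC-62 R3 likewise had the most peaks.

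The 14 common peaks of XIAP fell into 12 runs between 100 and 3080 nt after the stop codon, in the proximal part of the 3′ UTR. The strongest bin by lowest count, chrX:123042201-123042220, had 59 IP against 28 input reads for SK-Mel-103, 75 and 44 in UACC-62 R1, and 100 and 42 in UACC-62 R3. The window from 1201 to 1600 nt had log2 IP over input of 1.89, 1.37 and 1.36. The window from 4801 to 5200 nt had -0.78, -0.49 and 0.05. Signal over input within the XIAP 3′ UTR was hence uneven, and the 3 GREs farthest from the stop codon lay outside the stretch with common peaks.

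In the XIAP CDS, 236, 406 and 769 IP reads gave log2 IP over input of -0.03, -0.53 and -0.16. Its UACC-62 mean was -0.35 ± 0.26 (SD, n = 2). The 3′ UTR share of exonic reads was 91.7% in IP and 86.6% in input of SK-Mel-103, 91.4% and 83.6% in UACC-62 R1, and 89.0% and 82.4% in UACC-62 R3. Single CDS peaks were called at 1 bin for SK-Mel-103 and at 4 for UACC-62 R3, with chrX:123041021-123041040 in both, at 34 IP reads each.

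**Figure D2:**
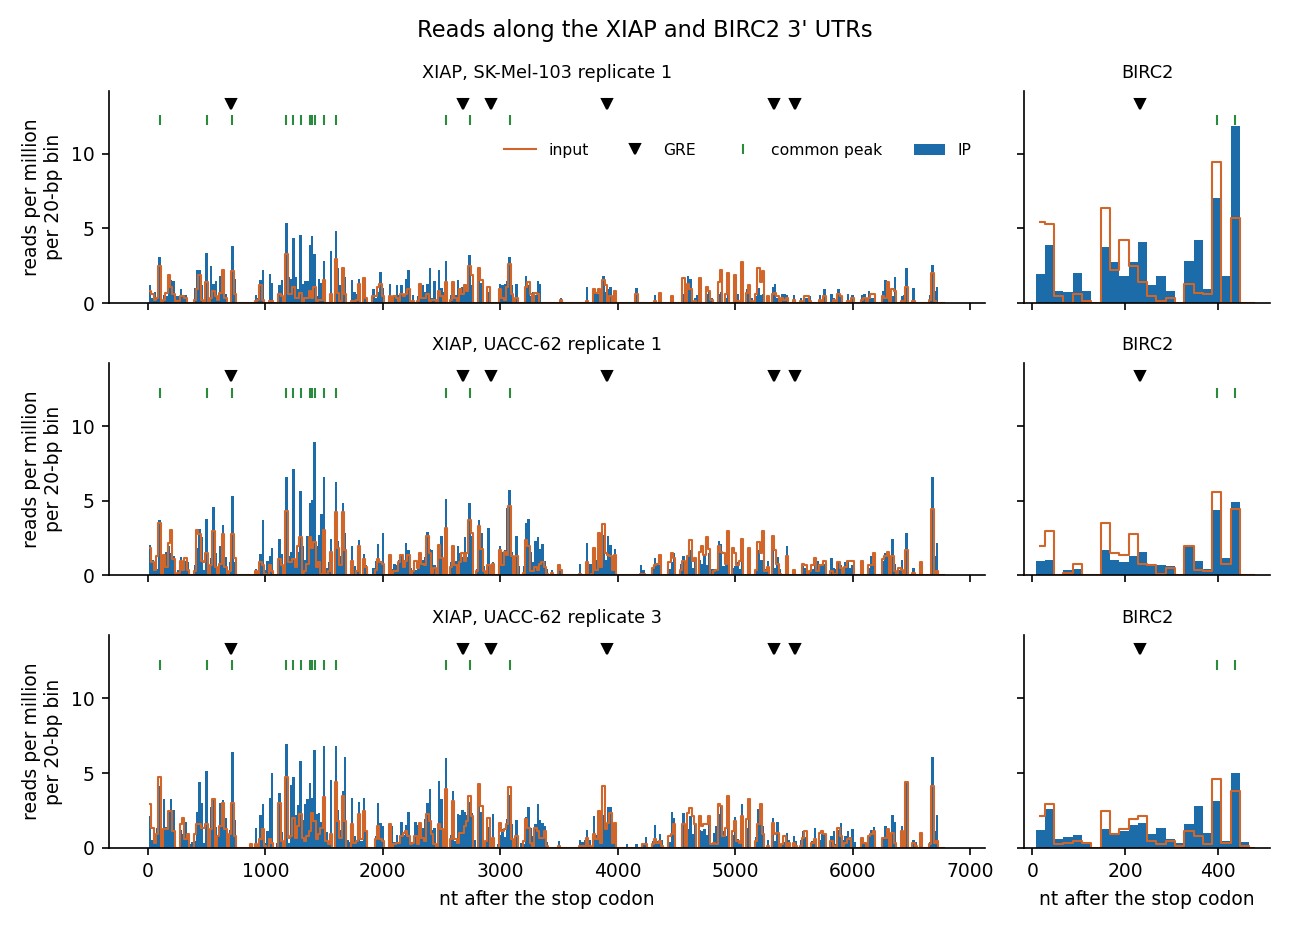
Reads per 1000000 listed reads in each 20-bp bin along the 3′ UTRs of XIAP (left) and BIRC2 (right), against the distance from the stop codon in nt, by sample (bars, IP; line, input; triangles, GREs; ticks, common peaks). The common peaks of XIAP lie between 100 and 3080 nt, and the pair in BIRC2 lies near the end of its short 3′ UTR, where the input is also high.

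BIRC2 (ENSG00000110330, chr11:102217942-102249401), also called cIAP1, has a 3′ UTR of 487 nt. It held 634 IP against 401 input reads for SK-Mel-103, 285 and 311 in UACC-62 R1, and 437 and 243 in UACC-62 R3. The log2 IP over input was 0.29, -0.28 and 0.15, with a UACC-62 mean of -0.07 ± 0.30 (SD, n = 2), and its direction changed between the UACC-62 replicates. Of its 7, 2 and 4 peaks, the 2 common ones were chr11:102249301-102249320 and chr11:102249341-102249360. The first had 77 IP against 80 input reads for SK-Mel-103, 50 and 57 in UACC-62 R1, and 45 and 41 in UACC-62 R3. With each count divided by its column total, its IP was below its input in every sample. A common peak thus need not lie above input. The second had 130 IP against 48 input reads for SK-Mel-103, 56 and 45 in UACC-62 R1, and 72 and 34 in UACC-62 R3.

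Most exonic reads of BIRC2 came from its coding sequence and 5′ UTR. The CDS held 1200, 513 and 932 IP reads, with log2 IP over input of -0.83, -1.03 and -0.51. The 5′ UTR gave -1.13, -1.66 and -0.83. The 3′ UTR share of exonic reads was 27.2% in IP and 13.9% in input of SK-Mel-103, 31.1% and 19.6% in UACC-62 R1, and 24.8% and 16.3% in UACC-62 R3, with no overlap of the Wilson intervals of IP and input.

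BIRC6 (ENSG00000115760, chr2:32582091-32844638) had no peak in any sample, in either region. Its 3′ UTR held 139, 128 and 164 IP reads beside 167, 200 and 210 input reads, and its log2 IP over input was -0.64, -0.80 and -1.05. Its CDS, 14709 nt long, held 2755, 1919 and 2318 IP reads beside 4167, 4633 and 3579 input reads, for values of -0.97, -1.43 and -1.32. Both regions were thus below 0 in every sample. The 3′ UTR share of its exonic reads was 4.80%, 6.25% and 6.61% in IP and 3.85%, 4.14% and 5.54% in input. The Wilson intervals of IP and input overlapped for SK-Mel-103 (4.08 to 5.64 and 3.32 to 4.47) and for UACC-62 R3 (5.70 to 7.65 and 4.86 to 6.32), but not in UACC-62 R1 (5.28 to 7.39 and 3.61 to 4.74).

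BIRC3 (ENSG00000023445, chr11:102188215-102210134), also called cIAP2 and the neighbour and close relative of BIRC2, was hardly seen. A single bin of its 115 3′ UTR bins was listed, with 4 IP reads and 1 input read in SK-Mel-103, and no bin was listed in UACC-62. Its CDS held 30, 9 and 5 IP reads beside 26, 10 and 6 input reads, and its 5′ UTR held 20 IP reads in SK-Mel-103 and none in UACC-62. No ratio was computed for BIRC3, as for any region with under 100 IP reads in a sample. Fewer transcripts and less association with CELF1 cannot be told apart in such a gene, and its low input was measured only in listed bins.

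Set side by side, the 3′ UTR log2 IP over input was highest in BIRC5, followed by XIAP, BIRC2 and BIRC6, in each of the 3 samples. The lowest value of BIRC5, 0.86, was above the highest of XIAP, 0.74, and the same held for each following pair in that order. The mean within-sample difference was 0.49 ± 0.37 (SD) from XIAP, 1.07 ± 0.36 from BIRC2 and 1.95 ± 0.55 from BIRC6, with BIRC5 higher in 3 of 3 samples each time. Two-sided exact sign-flip permutation tests over the 3 samples gave p = 0.25 for each (0.25 after Benjamini-Hochberg adjustment over the 3 comparisons), the smallest p that 3 samples allow. These SDs and tests, here and below, take the 3 samples as separate units. The UACC-62 replicates share a cell line and may be technical, so the SDs mix spread between lines and between replicates. The comparison with BIRC3 could not be made. BIRC2 was the median of the other 3 members in every sample, so BIRC5 minus their median was 0.67, 1.15 and 1.39.

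The smallest of these differences were those between BIRC5 and XIAP, 0.22 in SK-Mel-103, 0.34 in UACC-62 R1 and 0.91 in UACC-62 R3. The UACC-62 replicates of BIRC5 themselves differed by more than the first 2 of these. In the CDS the order was less clear, since the values of BIRC5 (-0.52 to 0.81) and XIAP (-0.53 to -0.03) overlapped. BIRC5 was above XIAP in UACC-62 R3 (0.81 and -0.16), level with it in UACC-62 R1 (-0.52 and -0.53) and below it in SK-Mel-103 (-0.17 and -0.03).

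Within each of the 4 measurable members the 3′ UTR was above the CDS in 3 of 3 samples, as was the case for 75.2% of the 2005 genes with at least 100 IP reads in both regions in every sample. The direction is therefore the usual one. The difference was 1.12, 1.38 and 0.72 for BIRC5 (mean 1.08), 1.12, 0.74 and 0.65 for BIRC2 (mean 0.84), 0.77, 1.06 and 0.79 for XIAP (mean 0.87) and 0.33, 0.63 and 0.27 for BIRC6 (mean 0.41). The median over the 2005 genes was 0.66, 0.72 and 0.58. The exact sign-flip permutation test gave p = 0.25 for each member. Differences of BIRC5 exceeded those of 73.3%, 74.6% and 58.0% of the genes.

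**Figure D3:**
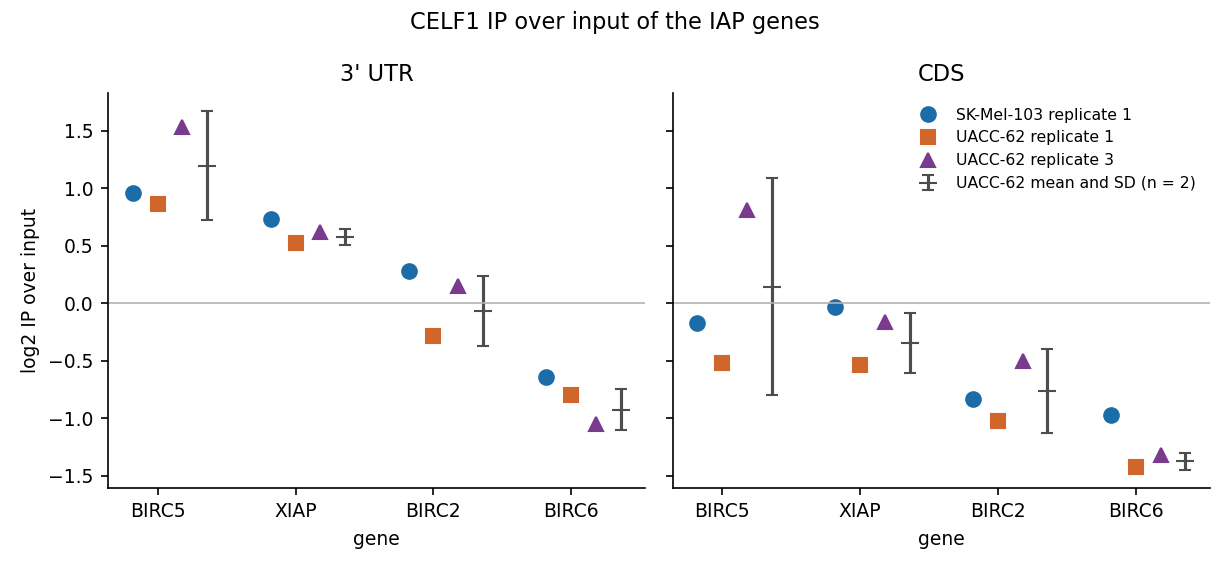
The log2 IP over input in the 3′ UTR (left) and the CDS (right) of the 4 members with at least 100 IP reads in each region, 1 point per sample, with the mean and SD of the 2 UACC-62 replicates beside them. In the 3′ UTR the points of BIRC5, XIAP, BIRC2 and BIRC6 do not overlap, whereas in the CDS those of BIRC5 and XIAP do.

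Over the 3935 genes with at least 100 IP reads in the 3′ UTR in every sample, the median log2 IP over input was 0.05, -0.37 and -0.08. BIRC5 was above 75.5%, 75.2% and 84.6% of these genes, XIAP above 70.3%, 69.0% and 67.2%, BIRC2 above 57.4%, 52.4% and 55.7%, and BIRC6 above 25.8%, 38.4% and 23.9%. BIRC5 thus lay in the upper part of the distribution but not at its end. By number of common peaks it stood further out, as 90.0% of the 1643 genes with a common 3′ UTR peak had fewer, beside 71.1% for XIAP and a median of 5 peaks. The input of the BIRC5 3′ UTR was 79.7, 77.8 and 72.9 reads per 1000000 and kb, that of XIAP 20.9, 38.9 and 41.3, and that of BIRC6 11.9, 11.8 and 14.2. Lengths here and in the IP levels above cover all isoforms, which lowers the values of BIRC6 and BIRC5. For BIRC6 these are 1667 nt beside 974 nt in its main transcript. Of its 83 bins, 35 belong to other isoforms alone, with 0, 1 and 0 listed. The input of BIRC2, 97.4, 62.8 and 56.1, was above that of BIRC5 in SK-Mel-103 and below it in both UACC-62 samples, in a region of 24 bins. The part of transcript abundance and length in the number of peaks was not tested.

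**Figure D4:**
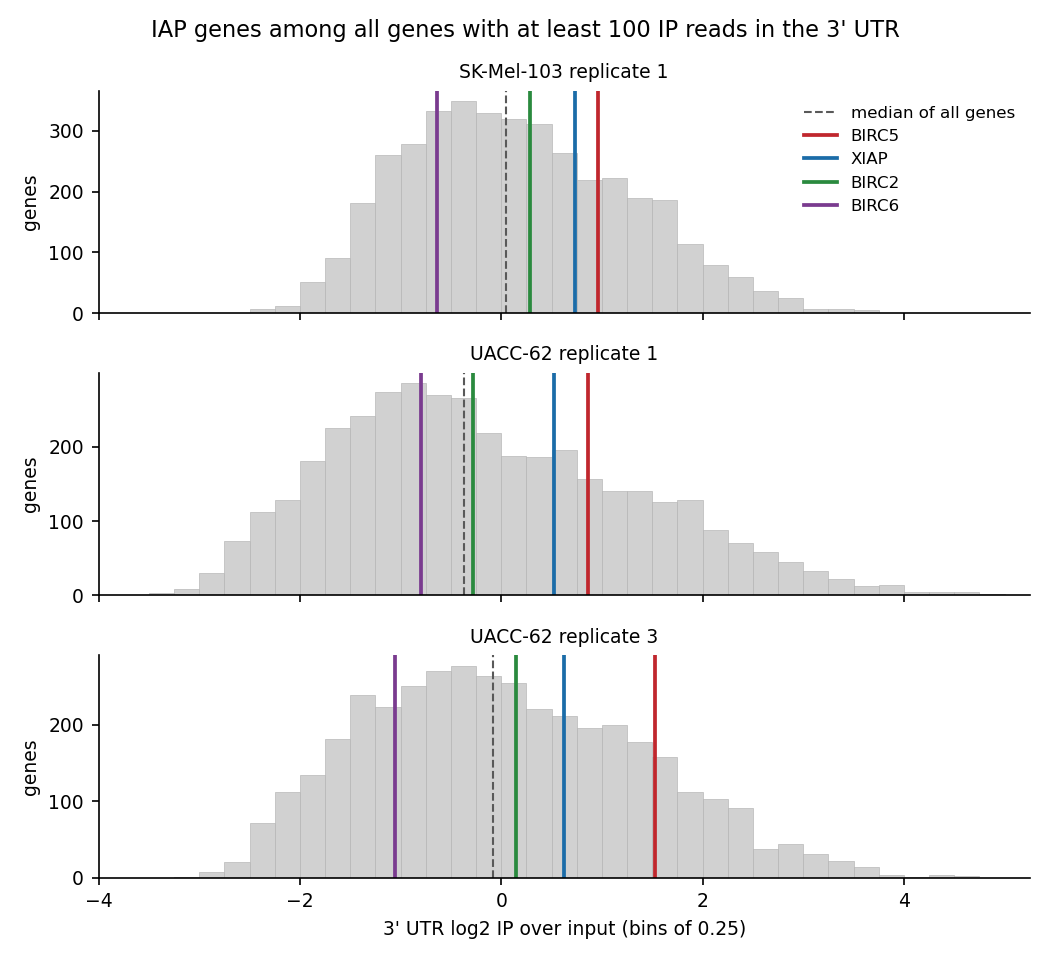
Number of genes by 3′ UTR log2 IP over input, in steps of 0.25, for the 3935 genes with at least 100 IP reads in that region in every sample, 1 panel per sample. Lines mark BIRC5, XIAP, BIRC2, BIRC6 and the median of all genes (dashed), and BIRC5 lies to the right of the other members in each panel.

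The genes nearest to BIRC5 by the Euclidean distance over 6 values, the 3′ UTR and CDS log2 IP over input in the 3 samples, were RIMOC1 (distance 0.30), DNAJC5 (0.39), MTHFD2 (0.44), CBFB (0.47) and TBL1XR1 (0.52) among the 2005 genes, whose median distance was 3.49. Of the family, XIAP was at 1.40, BIRC2 at 2.47 and BIRC6 at 4.24. RIMOC1, for example, had 3′ UTR values of 1.02, 0.91 and 1.51 and CDS values of -0.42, -0.56 and 0.68. All 5 had the pattern of BIRC5 with a CDS value above 0 in UACC-62 R3 and below 0 in UACC-62 R1. This follows from how they were chosen. They had 4, 9, 42, 68 and 101 common 3′ UTR peaks, a number that did not enter the distance, beside 42 in BIRC5.

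Of 16 further genes of the pathway, 15 were annotated as protein-coding, BIRC8 being listed as a pseudogene. Common 3′ UTR peaks were present in 3 of them and common CDS peaks in none, beside 8.51% and 2.8% of all genes, including those without a listed bin. These 3 were INCENP, with 36 common peaks, DIABLO, with 12, and AURKB, with 2. INCENP and AURKB encode partners of BIRC5 in the chromosomal passenger complex, a scaffold and its kinase, and DIABLO (Smac) encodes a mitochondrial antagonist of IAP proteins. Among the 6 genes with at least 100 IP reads in every sample, 4 were above 0 in all samples and 1 below 0 in all samples, beside 39.5% and 44.8% of the 3935 genes, with medians of 0.88, 0.30 and 1.06 beside 0.05, -0.37 and -0.08 over all genes.

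INCENP had the highest values of that list, 2.31 in SK-Mel-103, 3.35 in UACC-62 R1 and 3.41 in UACC-62 R3, from 3001, 3787 and 4079 IP reads, and all were above those of BIRC5. AURKB had 0.66, 0.54 and 0.99, and CDCA8, another subunit of that complex, had 1.11, 0.28 and 1.13 without a common peak. DIABLO had 1.30, 0.31 and 1.27. The TNF receptor partners TRAF1, TRAF2 and RIPK1, the antagonists HTRA2, XAF1 and SEPTIN4, the initiator caspase CASP9 and the IAP gene NAIP had fewer than 100 IP reads in the 3′ UTR in every sample. BIRC7, an IAP named for its expression in melanoma, had no listed exonic bin.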

How the data were processed

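CELF1 RIP-Seq of SK-Mel-103 and UACC-62 was analysed in 3 IP samples. The series lists 6 samples, the 3 inputs being used through a column of the IP lists. According to the submitters' processing notes, TopHat2 2.0.4, Bowtie 0.12.7 and SAMtools 0.1.16 were used on GRCh37. The authors called 20-bp bins with Piranha and the input as covariate. Deposited read counts are whole IP reads per bin, and each bin carries the p-value that the caller of the authors gave. The ratio deposited by the authors scales input reads, 0.01 marking none, and whole input reads were recovered from it. The transcript strand was the reverse of the listed one. Regions came from GENCODE 44 on GRCh37, in the order 3′ UTR, CDS, 5′ UTR.

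Log2 IP over input used a pseudocount of 1 read. Ratios needed 100 IP reads, a limit set after values were seen. Differences were tested by exact sign-flip permutation over samples. Reads of near-identical copies could not be told apart, since the authors kept multiply mapped reads. Named genes were the members, pathway genes with a common peak or extreme values, and the 5 nearest to BIRC5. Some items that this rule names, and 1 sequence, are not reported here. The members and lists were chosen with earlier results of these data known. Alternatives changed the read and p filters, pseudocount, scaling, region rules, strand, input and replicates. On simulated data all 50000 input counts and 400 planted GREs were recovered. Python 3.11.15, pandas 2.3.3 and scipy 1.17.1 were used.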

Additional observations from a re-analysis of the deposited data

Results flagged for a closer look

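Reads on the strand opposite to the gene lay outside the comparisons. In the exons of XIAP they numbered 38 IP against 27 input reads for SK-Mel-103 R1, 42 and 14 in UACC-62 R1, and 35 and 8 in UACC-62 R3, in 5, 6 and 5 listed bins. A listed bin holds at least 4 IP reads by construction. The exons of the other 4 members had no such bin.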

How the results depend on the processing

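The UACC-62 mean of the BIRC5 3′ UTR (1.2) stayed above 0 in all 13 alternatives, from 0.86 without UACC-62 replicate 3 (1.53 without UACC-62 replicate 1) to 1.62 as a raw ratio, and was 1.19 with no replicate block, that is, with the input of both UACC-62 replicates summed. BIRC5 minus the median of the other members, and BIRC5 3′ UTR minus CDS, stayed above 0 in all 12 alternatives that gave a value. With only bins over 30 IP reads neither could be computed. The BIRC6 3′ UTR then had no bin in any sample, and the BIRC5 CDS had none in SK-Mel-103 or UACC-62 R1. BIRC2 changed sign in UACC-62, to 0.36 as a raw ratio, 0.023 with only bins over 30 IP reads, and 0.15 without UACC-62 replicate 1, while it was -0.28 without replicate 3. XIAP (0.57) was 1.002 as a raw ratio and 0.79 with only bins over 30 IP reads, and BIRC6 (-0.92) was -0.50 as a raw ratio and -1.35 with only bins listed in all samples, moves larger than their replicate spread but with no change of sign. Common 3′ UTR peaks were found in 4 members (BIRC6 added) with no read filter, in 1 member (BIRC5) with more than 100 IP reads and in 0 if the strand was read as listed. Common CDS peaks were found in 5 members with no read filter and in 1 (BIRC5) when CDS came before 3′ UTR, since the CDS of another isoform takes the first bins after the main stop codon. Without UACC-62 replicate 1 they were found in 1 (XIAP) and without replicate 3 in 0. The members held 1 GRE with at most 1 mismatch and 0 with none. SK-Mel-103 had 1 sample, and 3 samples cannot give p under 0.25. No IP with another antibody was analysed here, and reads of bins that did not pass are unknown.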
